A study of Mus musculus with 8 samples.

Results

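GABA, the main inhibitory transmitter of the brain, is made from glutamate by 2 decarboxylases encoded by Gad1 and Gad2. It is packed into vesicles by the product of Slc32a1, cleared from the extracellular space by transporters of the Slc6 family such as that of Slc6a11, and broken down in mitochondria by the transaminase encoded by Abat. In the cortex most of the cells that make GABA are interneurons, whose classes are told apart by genes such as Pvalb, Lhx6, Adarb2 and Erbb4, whereas the projection neurons of the striatum make GABA too. These 9 genes, of 54446 in the deposited count table, are described here in 4 samples carrying the Scn2a gene-trap allele on both chromosomes (Scn2agt/gt; HOM replicates 1 to 4) and 4 Wild-type samples (WT replicates 1 to 4). They were chosen by name with the HOM to WT log2 fold changes of these same libraries known, among them a lower Gad1 level in HOM. Their own fold changes and calls are therefore a description and support nothing, and the question put to the data is whether the lower Gad1 level goes with lower levels of other interneuron transcripts. The 16 lists of other genes were also chosen with earlier results of these data known. Their counts, shares and medians are therefore a description too.

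The mice were of a strain labelled C75BL6; HOM and WT littermates came from heterozygous breeding pairs, and the labels give no treatment or further allele. The series title speaks of adult mice, and neither age, sex nor brain region is given in the labels. They call the cell type neuron, yet the libraries also held transcripts of glia, with a summed level of 10 astrocyte markers between 3980 and 4868 CPM in HOM and between 4943 and 5314 CPM in WT, Gfap having no measured value. CPM is the count scaled to a TMM-adjusted library size of 1e6. Whether the numbered samples are separate mice is not stated, and p-values measure sample-to-sample spread that may be technical. Scn2a encodes the sodium channel NaV1.2, and its transcript was reduced but present: Scn2a stood at 122, 147, 131 and 112 CPM in HOM replicates 1 to 4, against 477, 371, 477 and 415 CPM in WT replicates 1 to 4, so the HOM mean was 29.4% of the WT mean. Total counts per library lay between 27993412 and 35339890 in HOM and between 29053382 and 37538988 in WT. Y-linked genes held 2 counts in HOM replicate 4 and at least 4452 in each of the other 7 libraries. Choroid plexus transcripts differed between libraries, for a reason that was not tested. Their 12 tested markers summed to 241, 20.2, 36.9 and 24.0 CPM in HOM replicates 1 to 4, against 435, 364, 152 and 1767 CPM in WT replicates 1 to 4.

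All 9 genes passed the filter on low counts, and Gad1 alone was past the threshold across all genes, lower in HOM; nothing is read from this count, as the choice of genes used the contrast. It is 11.1% of the 9, where 5.4% of the 17395 genes tested were called (940 genes), 2.94% lower (511) and 2.47% higher (429). A gene was called at an edgeR quasi-likelihood p under 0.05 after Benjamini-Hochberg adjustment. The split of higher to lower calls was 539 to 355 with upper-quartile scaling and 844 to 286 with library totals only. The range of Gad1 in HOM did not overlap that in WT, as at 14.1% of all genes tested (7.47% with HOM lower), and the ranges of the other 8 overlapped. The median log2 fold change was -0.10 over the 9 genes and 0.00 over all genes tested. In bulk RNA, fewer cells of a type and less RNA per cell cannot be told apart.

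**Figure D1:**
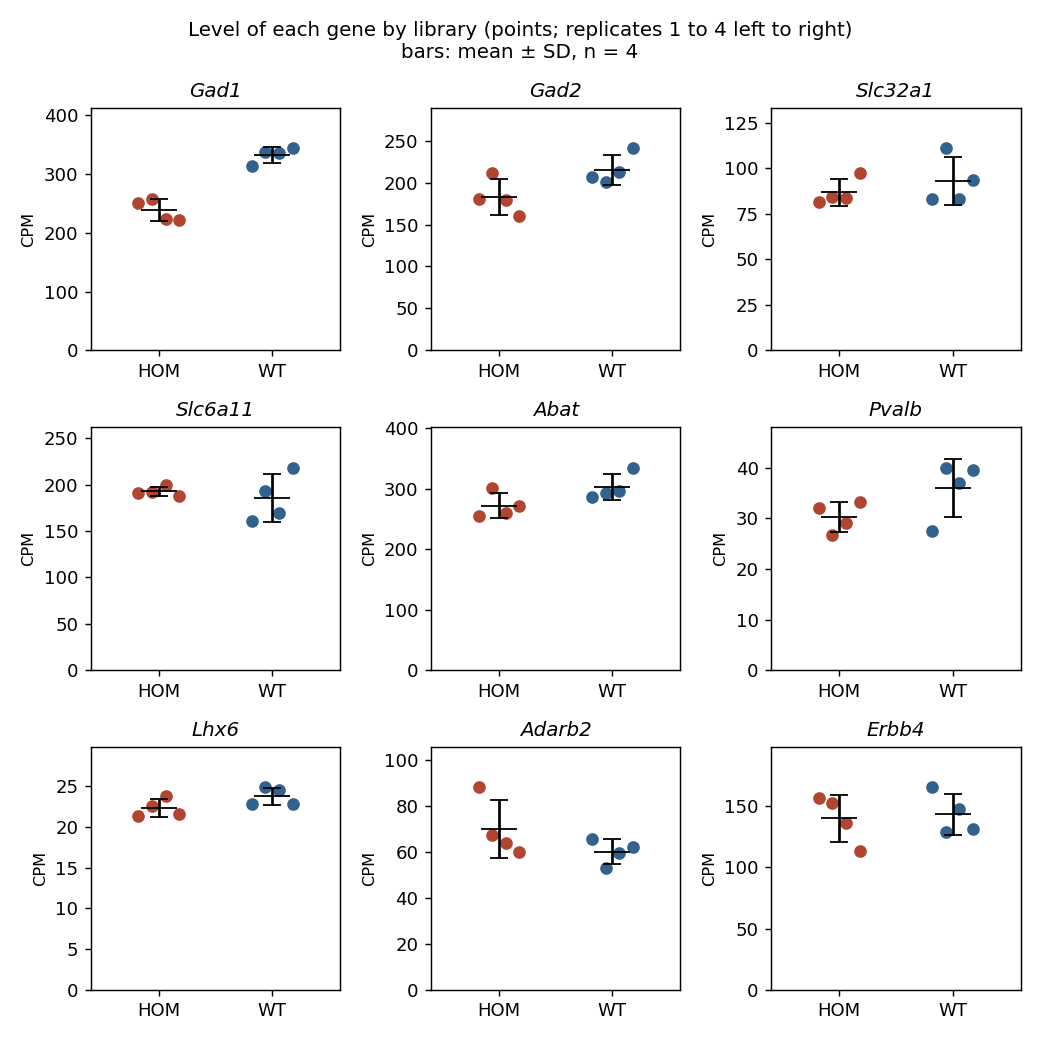
Level of each of the 9 genes in CPM (vertical axes, starting at 0) in HOM and WT libraries; points are libraries, replicates 1 to 4 from left to right, and bars give the mean ± SD (n = 4). Gad1 lies between 221 and 257 CPM in HOM and between 313 and 344 CPM in WT, and at the other 8 genes the groups overlap.

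Gad1, whose enzyme makes much of the brain's GABA throughout the cell, stood at 251, 257, 223 and 221 CPM in HOM replicates 1 to 4, against 313, 336, 335 and 344 CPM in WT replicates 1 to 4. Every HOM library lay below every WT library, the closest being HOM replicate 2 and WT replicate 1. The means were 238 ± 18.7 CPM in HOM and 332 ± 13.3 CPM in WT (SD, n = 4 each), or 71.7% of WT. On the log2 scale the fold change was -0.48 (SE 0.07), with a 95% interval from -0.63 to -0.33. It lay between -0.51 and -0.41 over 20 alternative settings, and the gene was past the threshold in 19 of them, including each removal of 1 library. When choroid plexus transcript was entered as a covariate it was -0.44 (SE 0.11) and not past the threshold. Choroid plexus transcript was lower in HOM replicates 2 to 4 (20.2 to 36.9 summed CPM) than in any WT library (152 to 1767). HOM replicate 1, at 241 summed CPM, exceeded WT replicate 3 only. The part of choroid plexus transcript in the Gad1 value was not tested beyond this covariate.

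Gad2 encodes the paralogous decarboxylase, which sits largely at synaptic terminals. Its level was 180.1, 211, 179.8 and 160.1 CPM in HOM replicates 1 to 4, against 206, 201, 213 and 241 CPM in WT replicates 1 to 4. HOM replicate 2 lay among the WT values, and the other 3 HOM libraries lay below all WT libraries. The means were 183 ± 21.03 CPM in HOM and 215 ± 17.9 CPM in WT (SD, n = 4 each), with a log2 fold change of -0.24 (SE 0.09, 95% interval from -0.43 to -0.04). This was not past the threshold across all genes, and it was past it when HOM replicate 2 was left out, at a log2 fold change of -0.30.

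The pair was also compared within each library. The ratio of Gad1 CPM to Gad2 CPM was 1.39, 1.22, 1.24 and 1.38 in HOM replicates 1 to 4, against 1.515, 1.675, 1.57 and 1.425 in WT replicates 1 to 4. No HOM library reached the lowest WT ratio, with means of 1.31 ± 0.09 in HOM and 1.55 ± 0.11 in WT (SD, n = 4 each). On the log2 scale the difference in this ratio was -0.24, with an SD over libraries of 0.10 in HOM and 0.10 in WT. As Gad1 was chosen for its lower level, the ratio is given without a test.

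**Figure D2:**
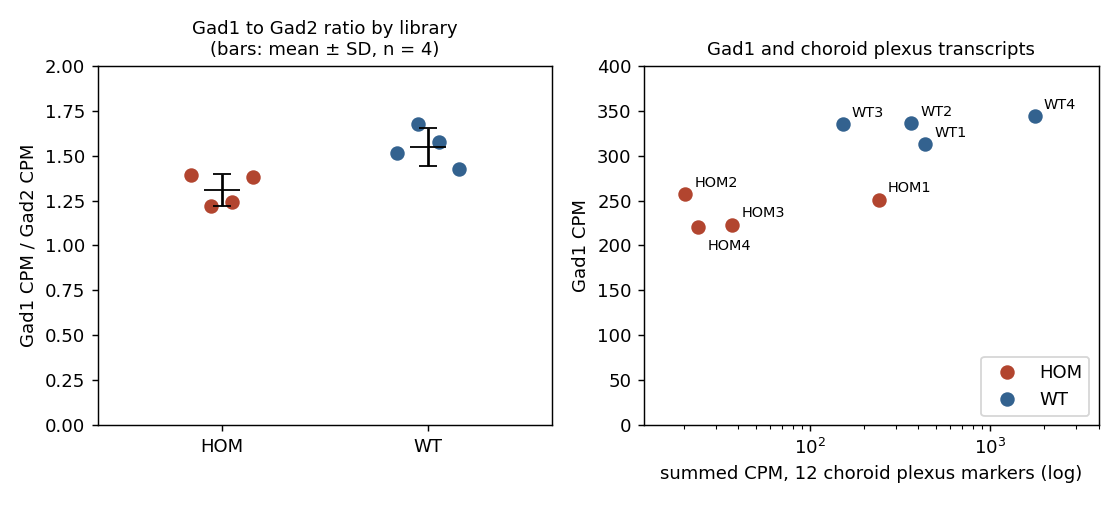
Left, the ratio of Gad1 CPM to Gad2 CPM in each HOM and WT library, with the mean ± SD (n = 4). Right, Gad1 CPM against the summed CPM of 12 choroid plexus markers on a log axis. HOM replicates 2 to 4 lie to the left of all WT libraries, and HOM replicate 1 lies to the right of WT replicate 3 only. Every HOM library lies below every WT library.

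Both genes lie on chromosome 2, which also carries Scn2a. In GRCm38, Gad1 (ENSMUSG00000070880) spans 70553072 to 70602014 on the plus strand, 4.79 Mb beyond the end of Scn2a, and Gad2 (ENSMUSG00000026787) spans 22622205 to 22693874 on the plus strand. Of the 27 genes tested between Scn2a and Gad1, 2 were lower and none higher (7.41% called), and of the 26 others tested within 1 Mb of Gad1, 1 was lower and none higher (3.85%), against 5.4% of all genes. Lhx6 and Slc32a1 lie on chromosome 2 as well, and neither was past the threshold. The counting settings are not given, but of 1343 protein-coding genes whose span other genes cover entirely, 95.6% had no count in any library, and of the others 13.4%, as counting over whole gene spans without strand would give. The first 10286 bases of Gad1 are shared with the antisense gene Gad1os, which held 24 to 58 counts, so that reads from that stretch, the annotated RefSeq start included, would then be absent from the Gad1 value.

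The 250 bases before the RefSeq starts of both genes are shown because these paralogs encode the same enzyme activity; whether their changes differ was not tested (RefSeq, GRCm38.p6, plus strand, 5′ to 3′). The Gad1 window is chr2:70561879-70562128 and the Gad2 window chr2:22622077-22622326. The Gad1 window lies inside the Gad1 span given above, and the Gad2 window reaches into the Gad2 span, which starts at 22622205. Both marked motifs lie inside these spans, as the RefSeq starts are further in. Capitals mark the GC box (GGGCGG on either strand) in Gad1 and the half-site of the cAMP response element (TGACG on either strand) in Gad2.
Gad1: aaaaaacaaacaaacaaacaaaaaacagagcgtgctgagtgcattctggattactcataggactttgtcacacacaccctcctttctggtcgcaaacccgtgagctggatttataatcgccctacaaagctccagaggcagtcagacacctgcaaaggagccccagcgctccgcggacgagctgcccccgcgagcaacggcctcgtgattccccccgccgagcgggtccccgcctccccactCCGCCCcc
Gad2: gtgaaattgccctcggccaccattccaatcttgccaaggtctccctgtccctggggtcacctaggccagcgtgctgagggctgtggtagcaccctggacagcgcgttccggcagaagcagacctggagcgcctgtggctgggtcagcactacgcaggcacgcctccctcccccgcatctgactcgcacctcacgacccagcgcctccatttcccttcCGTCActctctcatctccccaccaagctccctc
G and C made up 58.0% of the Gad1 window and 64.0% of the Gad2 window. The GC box was found in 32.7% of all 32851 such windows and the half-site in 17.8%, a half-site being part of each full element. Among 11 windows of the 8 genes with an entry (Abat had none), the full element TGACGTCA and the EGR motif GCGNGGGCG were in none, and the AP-1 motif TGANTCA was in 1, of Lhx6; these are in 1.55%, 4.7% and 6.75% of all windows. A match is a run of letters and not a site.

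Slc32a1 encodes the transporter that fills vesicles with GABA and glycine. Its level was 81.4, 84.3, 83.9 and 97.6 CPM in HOM replicates 1 to 4, against 83.3, 111, 83.2 and 93.6 CPM in WT replicates 1 to 4. The groups overlapped through most of their range, and WT replicate 2 was the highest library. The means were 86.8 ± 7.34 CPM in HOM and 92.8 ± 13.2 CPM in WT (SD, n = 4 each), a log2 fold change of -0.10 with a 95% interval from -0.31 to 0.11. It spans 158610767 to 158615748 on the plus strand of chromosome 2 (ENSMUSG00000037771), and the gene Gm14205 on the opposite strand shares 18.3% of that span.

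Slc6a11, a GABA uptake transporter found mainly on astrocytes, was at 191, 192, 199 and 188 CPM in HOM replicates 1 to 4, against 161, 193, 169.9 and 218 CPM in WT replicates 1 to 4. All HOM values fell inside the WT range, with a coefficient of variation of 2.46% in HOM and 13.8% in WT. The log2 fold change was 0.05 (95% interval from -0.14 to 0.24). Abat, the transaminase of neurons and astrocytes that degrades GABA, was at 255, 301, 260.4 and 271 CPM in HOM replicates 1 to 4, against 287, 293, 297 and 335 CPM in WT replicates 1 to 4. HOM replicate 2 exceeded 3 of the WT libraries and the other 3 HOM libraries lay below all of them. Its means were 272 ± 20.7 CPM in HOM and 303 ± 21.8 CPM in WT (SD, n = 4 each), and the log2 fold change was -0.15 (95% interval from -0.32 to 0.01). On the plus strand, Slc6a11 (ENSMUSG00000030307) spans 114131241 to 114249952 of chromosome 6 and Abat (ENSMUSG00000057880) spans 8513429 to 8621568 of chromosome 16.

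Pvalb encodes parvalbumin, the calcium buffer of fast-spiking interneurons. It stood at 32.1, 26.8, 29.05 and 33.2 CPM in HOM replicates 1 to 4, against 27.6, 40.05, 36.9 and 39.6 CPM in WT replicates 1 to 4. WT replicate 1 lay among the HOM libraries, and the other 3 WT libraries lay above all of them. Means of 30.3 ± 2.94 CPM in HOM and 36.0 ± 5.82 CPM in WT (SD, n = 4 each) gave a log2 fold change of -0.25 (SE 0.12), with a 95% interval from -0.50 to 0.01. Lhx6, a transcription factor of interneurons born in the medial ganglionic eminence, which include the parvalbumin and somatostatin classes, was nearly level. It was at 21.3, 22.6, 23.7 and 21.6 CPM in HOM replicates 1 to 4, against 22.8, 24.9, 24.5 and 22.8 CPM in WT replicates 1 to 4. The log2 fold change was -0.09 (95% interval from -0.25 to 0.07). On the minus strand, Pvalb (ENSMUSG00000005716) spans 78191114 to 78206400 of chromosome 15 and Lhx6 (ENSMUSG00000026890) spans 36081953 to 36105408 of chromosome 2.

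Adarb2, which encodes an RNA-binding relative of the editing enzymes and marks interneurons born in the caudal ganglionic eminence, stood at 88.0, 67.3, 63.9 and 60.0 CPM in HOM replicates 1 to 4, against 65.6, 53.1, 59.4 and 62.2 CPM in WT replicates 1 to 4. HOM replicates 1 and 2 lay above all WT libraries, and HOM replicates 3 and 4 lay among them. The log2 fold change was 0.22 (SE 0.11, 95% interval from -0.03 to 0.46). Erbb4, the neuregulin receptor of many interneurons, was at 157, 153, 137 and 114 CPM in HOM replicates 1 to 4, against 165, 129, 148 and 132 CPM in WT replicates 1 to 4. Its log2 fold change was -0.04 (SE 0.11, 95% interval from -0.27 to 0.20), and both genotypes covered much the same range. Adarb2 (ENSMUSG00000052551) spans 8202866 to 8768747 on the plus strand of chromosome 13, and Erbb4 (ENSMUSG00000062209) spans 68032186 to 69108059 on the minus strand of chromosome 1.

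These last 2 genes are very long, 565882 bases for Adarb2 and 1075874 bases for Erbb4, and long genes took unequal shares of the libraries. Genes of 200 kb or more took 12.54%, 12.25%, 11.73% and 10.88% of the counts in HOM replicates 1 to 4, against 12.28%, 10.74%, 11.55% and 10.58% in WT replicates 1 to 4. Within each genotype Erbb4 was highest in replicate 1, where this share was also highest. With a smooth trend with gene span removed from each library, the log2 fold change of Adarb2 was 0.08 and that of Erbb4 -0.26, past the threshold and lower. That trend rests on 59 tested genes at or above 1 Mb, Erbb4 among them. The part of the long-gene share in either value was not tested beyond this.

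Between libraries of 1 genotype the 9 genes varied by different amounts. The coefficient of variation ran from 2.46% for Slc6a11 to 17.9% for Adarb2 in HOM, and from 4.02% for Gad1 to 16.2% for Pvalb in WT. Counting alone would give between 1.04% for Abat and Gad1 and 3.67% for Lhx6 at their mean counts, which were 9267, 9171 and 743.

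**Figure D3:**
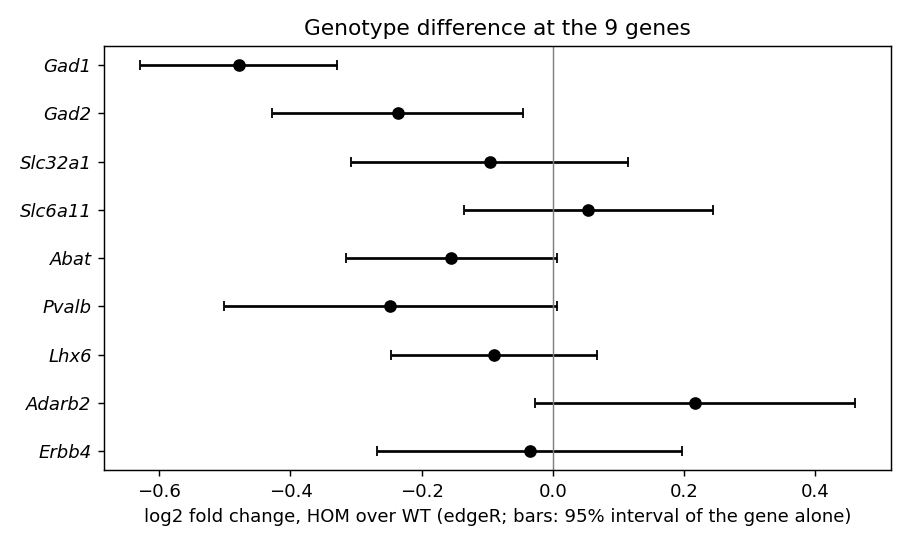
Log2 fold change of each of the 9 genes, HOM over WT, from the edgeR fit, with the 95% interval of that gene alone (bars). The interval of Gad1 lies between -0.63 and -0.33, that of Gad2 reaches -0.04, and those of the other 7 cross 0.

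Gad1 was also set against each of the other genes within a library, as a description. The log2 difference between Gad1 and Lhx6 was 3.55, 3.50, 3.23 and 3.35 in HOM replicates 1 to 4, against 3.77, 3.75, 3.77 and 3.91 in WT replicates 1 to 4, a change of -0.39. The change was -0.55 against Slc6a11, -0.33 against Abat and -0.69 against Adarb2, in each case without overlap between genotypes. It was -0.39 against Slc32a1, -0.44 against Erbb4 and -0.24 against Pvalb, where the genotypes overlapped. These are values in log2 CPM computed within each library, so the scaling between libraries cancels.

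Outside the 9 genes, 15 others that make, move or degrade GABA and its precursors were all tested and none passed the threshold (edgeR quasi-likelihood test, all genes). At an unadjusted p under 0.05 there were 8 of the 15, where 22.9% of all genes tested lay under it. DESeq2 called 5 and limma-voom 1, all lower, where they called 12.6% (of 15026 genes with an adjusted p) and 5.5% of all genes. Of the 15, 13 had a negative log2 fold change, and the list median was -0.25 against 0.00 for all genes.

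Genes of glutamine and glutamate supply did not pass either. Slc38a3, a glutamine exporter of astrocytes, averaged 53.7 ± 1.78 CPM in HOM and 67.3 ± 9.11 CPM in WT (SD, n = 4 each; log2 fold change -0.33, edgeR adjusted p = 0.0529). Glul, the glutamine synthetase of astrocytes, averaged 1131 ± 124 CPM in HOM and 1387 ± 143 CPM in WT (edgeR adjusted p = 0.0880). The glutamine importer genes Slc38a1 and Slc38a2 had log2 fold changes of -0.22 and -0.26, and the glutaminase gene Gls2 of -0.20. Downstream of Abat, Aldh5a1, which oxidises succinic semialdehyde, was at -0.13, and Akr7a5, which reduces it, at 0.16. The uptake transporter genes Slc6a13 and Slc6a12, typical of meninges and vessels, averaged 4.98 and 0.82 CPM in HOM and 5.96 and 1.23 CPM in WT. The HOM mean of Slc6a13 was raised by HOM replicate 4. Slc6a13 was at 2.99, 3.87, 3.19 and 9.86 CPM in HOM replicates 1 to 4, against 5.03, 6.86, 6.09 and 5.87 CPM in WT replicates 1 to 4. The summed level of the 15 genes was 2229 to 2656 CPM in HOM and 2706 to 3044 CPM in WT. Several of these genes belong to astrocytes, whose 10 tested markers all had negative log2 fold changes, with a median of -0.13. Of these 10 markers 1, Aqp4, was lower past the threshold (10%, against 5.4% of all genes). The part of astrocyte genes in the list of 15 was not tested. The Aqp4 call (edgeR adjusted p = 0.0417) was lost without HOM replicate 1, 3 or 4 or WT replicate 1, 3 or 4 (0.07 to 0.149), and with upper-quartile or library-total scaling and the choroid plexus covariate (0.0541 to 0.523).

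Other interneuron transcripts were covered by 4 lists of 51 symbols, matching 52 gene identifiers of which 47 passed the filter on low counts. As these lists were chosen with earlier results of these data known, their shares called and medians are a description. Of these 47, 8 passed the threshold (17%, against 5.4% of all genes), 6 lower and 2 higher, and the list median was -0.10 against 0.00. Their mean log2 CPM was 4.289 ± 0.0526 in HOM and 4.404 ± 0.0492 in WT (SD, n = 4 each), ranging from 4.238 to 4.356 in HOM and from 4.358 to 4.460 in WT, so the groups only just failed to overlap. The difference was -0.115, beside -0.48 at Gad1, which was chosen for its lower level, and the gap between them was not tested. Gad1 relative to this mean was 3.60 ± 0.13 in HOM and 3.97 ± 0.05 in WT on the log2 scale, without overlap. The count of 8 became 3 without HOM replicate 1, without HOM replicate 3 or without WT replicate 3, and 5 without HOM replicate 4. Calls over all genes also moved with libraries left out, over a range given in the closing section. The count was 1, Lamp5, with the choroid plexus covariate, where 39 of all genes were called.

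Transcription factors and other markers shared across GABAergic cells came to no call. Of 16 tested, none passed the threshold (edgeR, all genes; 2 at an unadjusted p under 0.05, against 22.9% of all genes, 1 by DESeq2, against 12.6%, and 0 by limma-voom), and the median was -0.04, between -0.08 and 0.03 over the alternatives. Of the 16, 9 had a negative log2 fold change and 7 a positive one. Maf, Prox1 and Nr2e1 were at -0.18, -0.28 and -0.16, and Sp9 at 0.18. Dlx2 and Dlx5, homeobox genes of the GABAergic lineage, had log2 fold changes of 0.01 and 0.17, and Sox6, which acts after Lhx6, 0.03. Dlx6os1, a noncoding RNA of the same locus as Dlx5, was at -0.29 (edgeR adjusted p = 0.0909). Dlx1 and Dlx6 are covered entirely by antisense genes and had no measured value.

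Parvalbumin cell markers other than Pvalb gave no call. Of 8 tested, 7 had a negative log2 fold change, with a median of -0.31. None passed the threshold (edgeR, all genes), 6 did at an unadjusted p under 0.05 (22.9% of all genes), 4 by DESeq2 (12.6% of all genes) and 0 by limma-voom. Without HOM replicate 2, 4 passed. In that fit calls went from 1 to 2 among astrocyte markers and from 4 to 2 among somatostatin markers. The share of all genes called in that fit is not reported here. Syt2, the calcium sensor of fast release, averaged 56.4 ± 5.07 CPM in HOM and 69.1 ± 6.69 CPM in WT, with a log2 fold change of -0.29 (edgeR adjusted p = 0.0656). Pthlh, Kcns3 and Osbpl3 were at -0.57, -0.47 and -0.33 and missed the threshold as well. Kcnc1 and Kcnc2, potassium channels that allow fast spiking, were at -0.20 and -0.21, and Tac1, which striatal neurons express too, was at 0.25. Of 8 genes of the perineuronal net, the matrix coat of many parvalbumin cells, all had negative log2 fold changes (median -0.26). Only Hapln4, a link protein, passed the threshold, lower in HOM (12.5% called, against 5.4% of all genes). Hapln4 was at 57.9, 75.3, 64.5 and 60.2 CPM in HOM replicates 1 to 4, against 111, 105, 109 and 95.1 CPM in WT replicates 1 to 4 (-0.70 on the log2 scale, SE 0.09, edgeR adjusted p = 0.00174).

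The somatostatin list split: 3 of 10 tested genes fell, 1 rose and 6 missed the threshold (40% called, against 5.4% of all genes). Its median was 0.02, between -0.07 and 0.09 over the alternatives, and its mean -0.05. Sst itself overlapped between groups, averaging 141 ± 21.6 CPM in HOM and 151 ± 31.1 CPM in WT (log2 fold change -0.10, edgeR adjusted p = 0.713). Npy, a neuropeptide of several interneuron classes, was at 21.9, 22.8, 20.3 and 27.2 CPM in HOM replicates 1 to 4, against 29.6, 44.0, 31.7 and 30.3 CPM in WT replicates 1 to 4 (-0.55, edgeR adjusted p = 0.0348). Cort, a neuropeptide related to somatostatin, averaged 1.96 ± 0.33 CPM in HOM and 3.48 ± 0.59 CPM in WT (-0.83, edgeR adjusted p = 0.0266). Crhbp, a binding protein of corticotropin-releasing hormone, was at -0.43 (edgeR adjusted p = 0.0468). Nos1, the neuronal nitric oxide synthase, rose to 99.2 ± 7.93 CPM in HOM, against 74.0 ± 7.20 CPM in WT (0.42, edgeR adjusted p = 0.0177). These calls rest on few libraries and depend on the fit. With the choroid plexus covariate all 4 were lost, and with the replicate block Cort, Npy and Crhbp were lost. Without HOM replicate 1, HOM replicate 3 or WT replicate 3, all 4 were lost, at adjusted p from 0.0605 to 0.066 for Nos1, 0.0851 to 0.0913 for Cort, 0.0778 to 0.118 for Npy and 0.104 to 0.148 for Crhbp. Without HOM replicate 2 the adjusted p was 0.0543 for Npy, without HOM replicate 4 or WT replicate 2 it was 0.0502 and 0.0501 for Cort, and Crhbp was lost without any 1 library (0.0516 to 0.148).

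**Figure D4:**
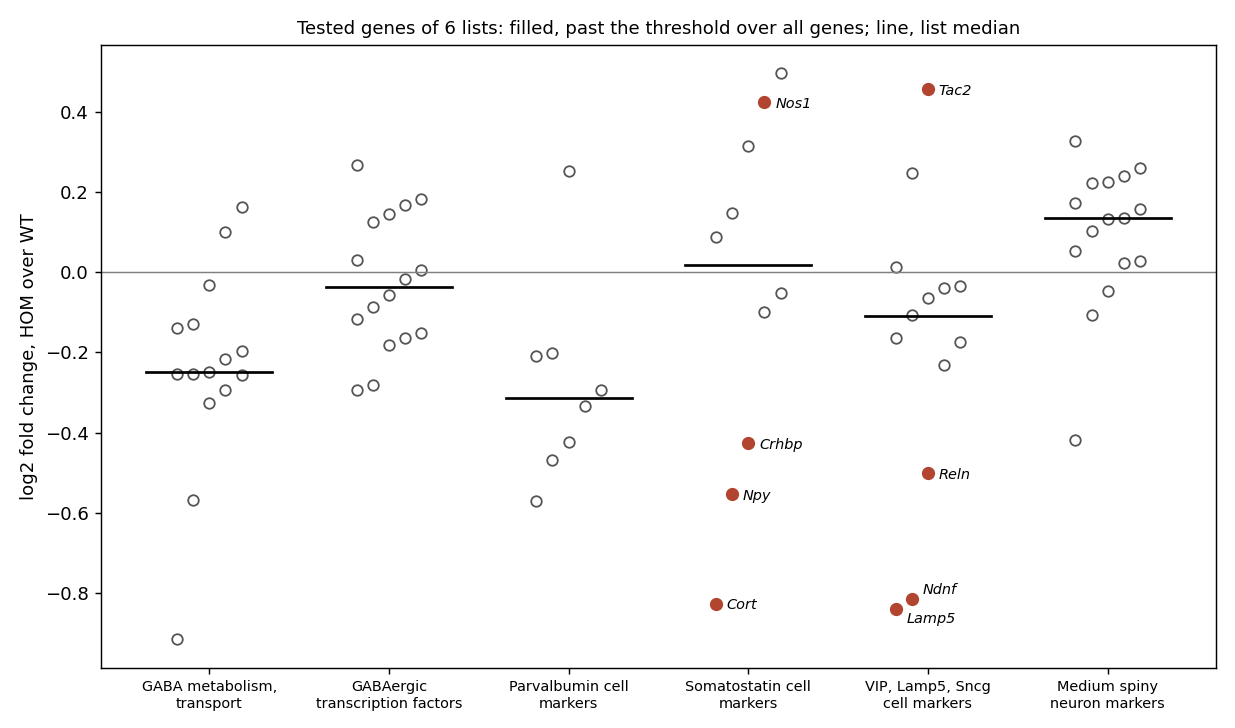
Log2 fold change, HOM over WT, of the tested genes of 6 lists (points), filled where past the threshold over all genes, with the list median as a line. The lowest called genes are Lamp5, Cort and Ndnf, and no transcription factor, parvalbumin cell or medium spiny neuron marker is filled.

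In the list of VIP, Lamp5 and Sncg cell markers, 3 of 13 tested genes fell, 1 rose and 9 missed the threshold. That is 30.8% called, against 5.4% of all genes, and the median was -0.11. The 3 that fell, Lamp5, Ndnf and Reln, mark neurogliaform and layer 1 interneurons, and Lamp5 is also found in excitatory neurons of the cortex. Lamp5, a membrane protein of the lysosome family, was at 75.4, 94.0, 80.3 and 85.8 CPM in HOM replicates 1 to 4, against 157, 145, 161 and 138 CPM in WT replicates 1 to 4. The highest HOM library stood below the lowest WT library, at a log2 fold change of -0.84 (SE 0.08, edgeR adjusted p = 3.09e-04). Ndnf, a secreted factor, was at 12.1, 10.01, 11.1 and 13.8 CPM in HOM replicates 1 to 4, against 22.6, 17.4, 21.03 and 21.8 CPM in WT replicates 1 to 4 (-0.81, SE 0.11, edgeR adjusted p = 0.00379). Reln, the secreted glycoprotein reelin, averaged 68.9 ± 4.34 CPM in HOM and 97.5 ± 10.9 CPM in WT (-0.50, SE 0.08, edgeR adjusted p = 0.00993). All 3 passed in each removal of 1 library; with the choroid plexus covariate Lamp5 passed (edgeR adjusted p = 0.00274), and Ndnf (0.121) and Reln (0.178) did not.

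Vip, the peptide gene that names its class, overlapped between groups. It averaged 31.0 ± 2.96 CPM in HOM and 31.7 ± 2.89 CPM in WT (log2 fold change -0.03, SE 0.09, edgeR adjusted p = 0.858). Calb2 and Cck, the calcium buffer and the neuropeptide of neighbouring classes, were at 0.25 and -0.06. Tac2, a tachykinin gene, rose (0.46, edgeR adjusted p = 0.0345), a call lost without HOM replicate 1, 3 or 4 or WT replicate 1 or 3 (0.0655 to 0.102). The Tac2 call was also lost with the replicate block and with the choroid plexus covariate.

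Genes that act with or resemble the 9 were listed too. Among 10 tested neuregulin and ErbB genes other than Erbb4, 1 was called (10%, against 5.4% of all genes) and the other 9 missed the threshold. The ligand gene Nrg2 rose, at 47.1 ± 6.55 CPM in HOM and 31.2 ± 2.16 CPM in WT (0.60 on the log2 scale, edgeR adjusted p = 0.00893, and 0.0831 with the choroid plexus covariate). The ligand genes Nrg1 (0.53, edgeR adjusted p = 0.0632) and Nrg3 (0.40, edgeR adjusted p = 0.155) were on the same side with wide spread, and both span over 1 Mb. Of 6 paralogs, 1 was called lower and 1 higher (33.3%, against 5.4% of all genes). Adarb1, an active editing enzyme related to Adarb2, fell to 219.5 ± 13.0 CPM in HOM, against 283 ± 13.1 CPM in WT (-0.37, edgeR adjusted p = 0.0123, 0.257 with the choroid plexus covariate, and 0.0529 when HOM replicate 1 was left out). Csad, a decarboxylase of taurine synthesis related to Gad1, rose (0.31, edgeR adjusted p = 0.0369), a call lost without HOM replicate 1, 3 or 4 or WT replicate 1 or 3 (0.0622 to 0.115). The Csad call was also lost with the replicate block and with the choroid plexus covariate (0.248 with the covariate). Gadl1, another relative of Gad1, was at -0.21 (edgeR adjusted p = 0.504).

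Gad1 is also expressed by the medium spiny neurons of the striatum, and their 16 tested markers gave no call. None passed the threshold (edgeR, all genes; 1 at an unadjusted p under 0.05, against 22.9% of all genes, 0 by DESeq2 and by limma-voom), 13 had positive log2 fold changes, and the median was 0.13. Drd1 and Drd2, the dopamine receptors of both pathways, were at 0.05 and 0.13, and Penk, the enkephalin precursor, at 0.16. Among 10 excitatory neuron markers the median was -0.13 and 1 was called (10%, against 5.4% of all genes). It was Neurod6, which fell (-0.29, edgeR adjusted p = 0.0485). That call was kept without HOM replicate 2 (0.0278) and lost without any other 1 library (0.0518 to 0.166). It was also lost with RLE, upper-quartile or library-total scaling, either change of filter and the replicate block (0.0545 to 0.0934). The choroid plexus covariate (0.141) and removal of the span trend (0.109) lost it too. Of 4 tested Purkinje cell markers 50% were called, against 5.4% of all genes. Itpr1 fell and Ppp1r17 rose, Ppp1r17 averaging 0.55 CPM in HOM and 0.15 CPM in WT, and the defining Pcp2 had no measured value. Both calls were lost without HOM replicate 1, 3 or 4 or WT replicate 1, 3 or 4 (edgeR adjusted p 0.0566 to 0.123 for Itpr1 and 0.066 to 0.155 for Ppp1r17) and with the choroid plexus covariate (0.23 and 0.225). Ppp1r17 was also lost without WT replicate 2 (0.0842) and with the replicate block (0.0684), and Itpr1 with library totals only (0.0507).

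The 5 genes most like Gad1 over the 8 libraries, among 9963 protein-coding genes of at least 10 CPM on average, were Mapk4, Trappc10, Irgq, Tfrc and Spry2, with Pearson correlations of log2 CPM from 0.983 to 0.987. On deviations from genotype means their correlations lay between 0.803 and 0.865. All 5 were lower in HOM, from -0.57 for Tfrc, the transferrin receptor, to -0.24 for Irgq on the log2 scale. With the choroid plexus covariate none of the 5 passed the edgeR threshold (adjusted p 0.0821 to 0.278). With 1 library left out Tfrc passed each time, Mapk4 did not without HOM replicate 3 (0.0529), Spry2 not without HOM or WT replicate 3, and Trappc10 and Irgq not without HOM replicate 1, 3 or 4 or WT replicate 3 or 4. Of the other 8 genes described here, Gad2 came closest at 0.824, followed by Abat at 0.739, and Slc32a1 stood at 0.26. The correlations over 8 libraries hold the difference between genotypes itself, and they are given without a test.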

How the data were processed

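The table the authors deposited holds raw counts, whole numbers for each Ensembl gene. FastQC 0.11.3, STAR, featureCounts and edgeR are named with GRCm38, per the submitters' processing notes; the sources used here give neither other versions nor the annotation or strand option. The libraries were stranded and paired-end, per the labels' protocols. Symbols and positions came from GENCODE M21 (GRCm38), which held 54409 of 54446 identifiers; the other 37 took 0.0143% of counts. The test was edgeR's (version 4.0.16, R 4.3.3; glmQLFit and glmQLFTest, TMM scaling, filterByExpr at about 10 counts in 4 libraries and 15 in all) over 17395 genes, with Benjamini-Hochberg adjustment at 0.05; log2 CPM used a prior count of 2. Intervals are for single genes at 95%. TMM factors were 1.023 ± 0.00538 in HOM and 0.977 ± 0.0123 in WT (SD, n = 4 each, two-sided exact permutation p = 0.0286, the lowest value 70 relabellings allow). No libraries were duplicates (chi-square per degree of freedom at least 7.06). The test was tried on simulated data. Alternatives used DESeq2 1.42.0, limma 3.58.1 (voom), other scalings and filters, a robust fit, the replicate number as a block, removal of libraries, the mean log2 level of choroid plexus markers as a covariate, and a gene-span trend fitted with mgcv 1.9.3.

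The 9 genes and all 16 lists were chosen with earlier results of these data known. Named genes are the 9, Scn2a, up to 5 of smallest p in a list, defining markers, members of the list of 15 further GABA genes and the 5 genes most like Gad1; Kcnc2, Tac1, Dlx2, Dlx5, Sox6, Calb2, Cck, Drd1, Drd2 and Penk lie outside that rule and were named after their values were seen. Some list members are counted but not reported singly here. The other lists gave 8 oligodendrocyte markers with a median log2 fold change of -0.29 and 5 microglia markers at 0.04. In both lists 0 were called by edgeR. At an unadjusted p under 0.05 lay 7 of the 8 and 1 of the 5, against 22.9% of all genes. DESeq2 called 3 of the 8 and 1 of the 5, against 12.6% of all genes. The 9 leptomeningeal markers were at -0.50, 3 of them lower (33.3%, against 5.4% of all genes). These calls became 0 without HOM replicate 1 or 3 or WT replicate 1, 3 or 4, 1 without HOM or WT replicate 2, and 6 without HOM replicate 4. The 12 choroid plexus markers were at -2.38, 5 of them lower (41.7%, against 5.4% of all genes). Without WT replicate 4 the choroid plexus median was -1.38 with 0 lower; calls were also 0 without HOM replicate 2, 3 or 4, 1 without WT replicate 1, 3 without HOM replicate 1 and 7 without WT replicate 2.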

Additional observations from a re-analysis of the deposited data

Results flagged for a closer look

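Among 56 groups of 4 libraries (1 gene in 1 genotype each), a library stood apart from the other 3 of its group in 2 groups; chance gives about 1 group in 20. Npy in WT replicate 2 was at 44.0 CPM, the highest of the WT libraries, with a gap of 0.851 of the group's range. Trappc10 in WT replicate 1 was at 130.7 CPM, the lowest of the WT libraries, with a gap of 0.869 of the range. Without WT replicate 2 the log2 fold change of Npy was -0.40.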

How the results depend on the processing

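The 20 alternatives kept Gad1 lower in HOM in 20 of 20 and past the threshold in 19. The number of the 9 genes past the threshold was 0 with the choroid plexus covariate, 2 with the gene-span trend removed (Gad1 and Erbb4), 1 or 2 with libraries left out (2 without HOM replicate 2, adding Gad2), and 1 elsewhere. Over all genes, 940 calls became 1900 with DESeq2, 364 with the replicate block, 39 with the covariate, 1541 with the span trend removed, and 180 to 1187 with libraries left out (335 without replicate 4 of both genotypes). The 15 further GABA genes, with 0 calls, gave 5 calls with DESeq2, 1 with limma-voom, 1 with the robust fit, 1 without a filter, 2 with the span trend removed and 0 to 1 with libraries left out. The 47 interneuron genes gave 14 with DESeq2, 4 with the replicate block, 1 with the covariate and 3 to 10 with libraries left out. The causes were not tested. Replicate numbers were not taken as pairs: correlations of deviations between same-numbered libraries were 0.117, -0.519, -0.0248 and 0.112. With the replicate block the log2 fold change of Gad1 was -0.48.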
